A study of Homo sapiens with 6 samples.

Results

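The genes described here encode the core proteins of the small nuclear ribonucleoproteins (snRNPs) of the spliceosome and their closest partners. Gene counts from RNA sequencing were read in A549, a wild-type line of human lung adenocarcinoma cells. The cells had been treated for 24 h, after 24 h of seeding, with Japoflavone B, which the study's title calls a PARP1 inhibitor, at a dose given as 40 with no unit, or with DMSO alone, and each group held 3 libraries. Titles of the treated libraries also carry the code LE-532, which the labels do not explain. Members were chosen by gene symbol from the patterns SNRP (12 genes), SNRNP (7), SF3A and SF3B (9), PRPF (13) and LSM (13), which gave 54 of the 61806 genes listed. The patterns use no measured value, but earlier results of these data were known when the members were chosen. A further 56 SNRP symbols that end in P plus a number, the form of pseudogene names, were left out; SNRNP symbols such as SNRNP25 also end that way and were kept. All 54 members passed the filter on low counts, the lowest single value being 92 counts for SNRNP35 in Japoflavone B replicate 2.

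The libraries held 15733769 to 19822366 gene counts after Japoflavone B and 15298531 to 21744407 after DMSO. Mitochondrially encoded genes took 8.43% ± 0.128 of counts after Japoflavone B and 4.36% ± 0.371 after DMSO (SD, n = 3 each). Of 5 epithelial markers 4 stood at 1 FPKM or more on average over the 6 libraries, with EPCAM below that level, and their summed level was 213 to 226 FPKM after Japoflavone B and 687 to 769 FPKM after DMSO. FPKM are counts per kilobase of exonic gene size and scaled to the total count of the library. Of 8 alveolar type II markers 1, ABCA3, reached 1 FPKM, so the surfactant markers of that lung cell type were near 0, and the list summed to 22.4 to 23.3 FPKM after Japoflavone B and 10.37 to 11.02 FPKM after DMSO. Leukocyte markers summed to 0.113 to 0.297 FPKM after Japoflavone B and to 0.0302 to 0.109 FPKM after DMSO, with CD3E at 0 counts. Endothelial markers summed to at most 0.0261 FPKM after Japoflavone B and 0.0722 FPKM after DMSO, with VWF at 0 counts, and fibroblast markers to 1.26 to 1.59 FPKM after Japoflavone B and 5.47 to 6.32 FPKM after DMSO. The mitochondrial share and the epithelial, alveolar and fibroblast sums moved with treatment, and their part in the results below was not tested. In bulk libraries such as these, fewer cells and less RNA per cell cannot be told apart. Whether replicate libraries stem from separate cultures is not labelled, so a p-value here covers only the library-to-library spread, which may be technical.

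The spliceosome removes introns from pre-mRNA. Its snRNPs each hold a small nuclear RNA wrapped by a ring of Sm proteins, or of the related LSM proteins in the U6 particle, together with proteins particular to each particle. U1 recognises the 5′ splice site, U2 the branch site, and the U4/U6 and U5 particles join as a tri-snRNP that is rearranged into the catalytic core. A separate minor spliceosome, with U11 and U12 in place of U1 and U2, removes a rare class of introns, and a U7 particle with its own Sm-like subunits processes the 3′ end of histone mRNA.

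Core snRNP genes moved in both directions after Japoflavone B, and mostly by less than 2-fold. Of 54 members, 23 were higher, 20 were lower and 11 did not pass (edgeR quasi-likelihood test, Benjamini-Hochberg adjusted p under 0.05 over 16082 genes). Among all genes tested 70% passed, 34.7% higher and 35.4% lower, beside 79.6%, 42.6% and 37.0% of the members. Only 2 members rose by 2-fold or more, SNRNP27 and LSM11, and 3 fell by as much, PRPF8, SNRNP25 and SNRNP35, whereas 24.7% of all genes moved that far, 9.67% higher and 15% lower. The median log2 fold change was 0.08 for the members and -0.0038 for all genes tested, and the median absolute log2 fold change was 0.31 for the members and 0.53 for all genes. Every member had at least 1253 counts over the 6 libraries, whereas all genes tested reach down to the filter on low counts. No background matched for expression level was used, so these contrasts may reflect level. In FPKM the groups did not overlap in 41 members, 24 lower and 17 higher after Japoflavone B, against 72%, 41% and 31% of all genes. Of the members called, 53.5% were higher, a share that was 39.0% with library totals as the only scaling, 38.5% with limma on log2(FPKM + 1) and 24.3% with limma on log2(TPM + 1). The median shift of a gene's log2 fold change from its main value under these 3 scalings was -0.10, -0.10 and -0.21, both over all genes and over the members. Of the 43 calls, 26 held under all 17 alternatives tried, 17 of them lower and 9 higher.

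**Figure D1:**
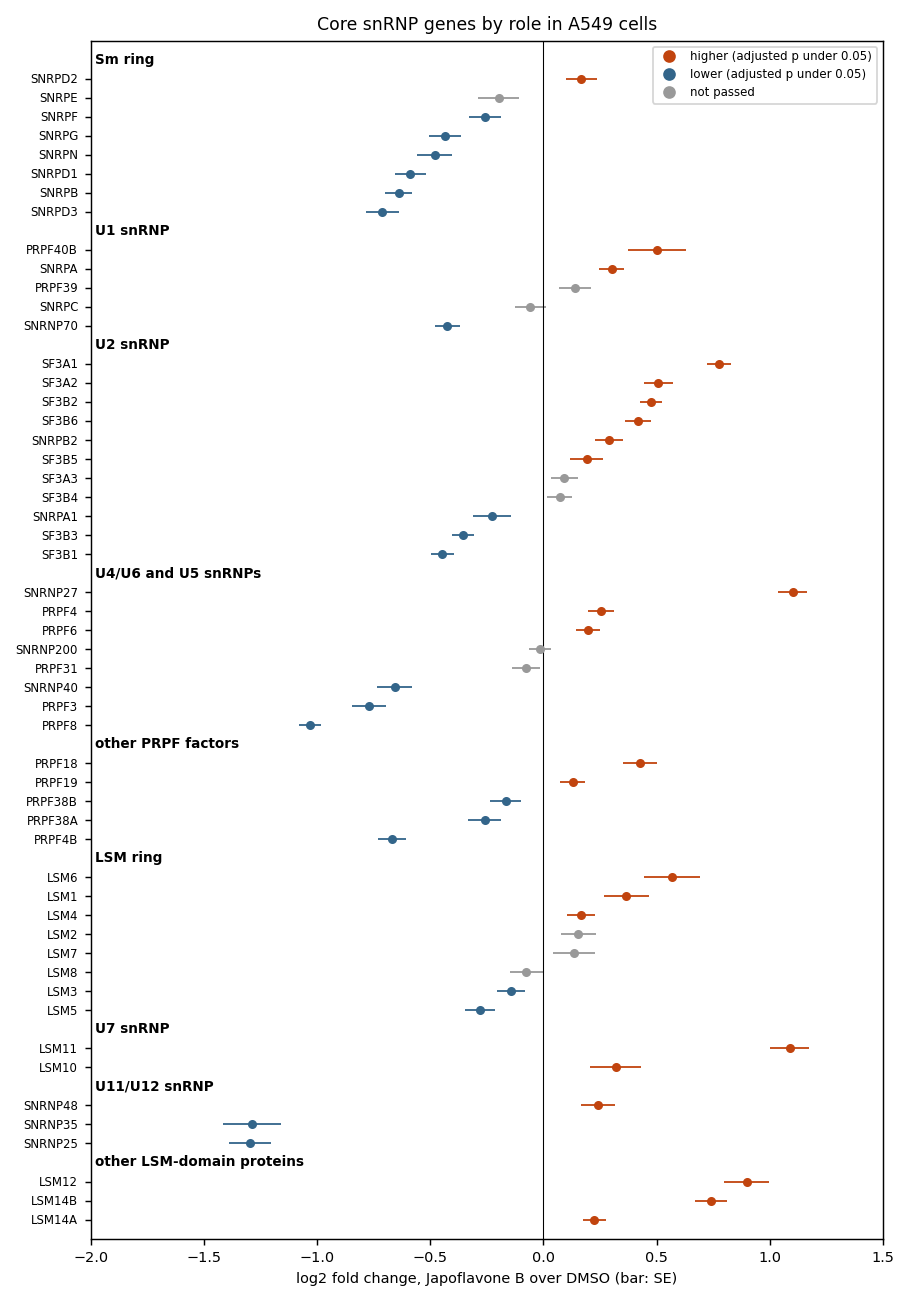
Log2 fold change of the core snRNP genes reported here, Japoflavone B over DMSO, on the horizontal axis, with bars for the standard error, grouped by role and coloured by call. SNRNP27 (1.10) and LSM11 (1.09) stand farthest to the right and SNRNP25 (-1.30), SNRNP35 (-1.29) and PRPF8 (-1.03) farthest to the left.

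**Figure D2:**
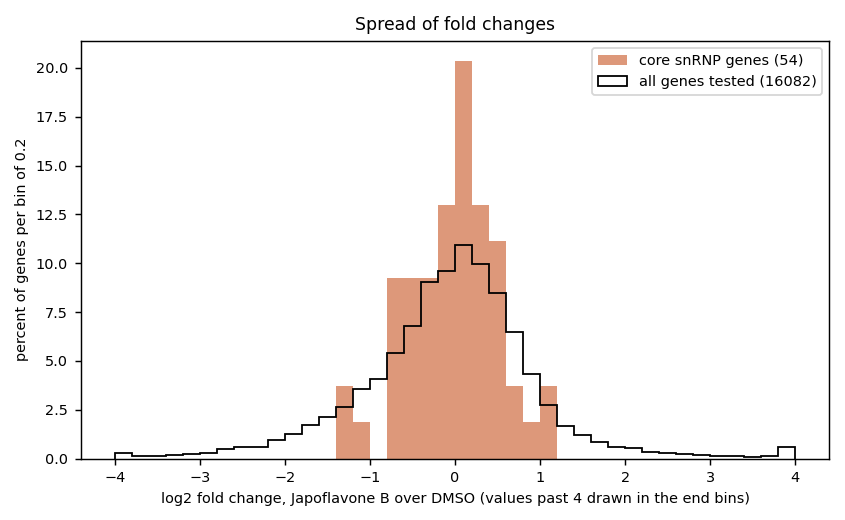
Percent of genes in each bin of log2 fold change for the 54 core snRNP genes (filled) and for the 16082 genes tested (line). The median absolute change is 0.31 log2 for the core snRNP genes and 0.53 log2 for all genes, which were not matched for expression level.

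Promoter sequence is shown for 4 members that moved by different amounts and in different directions, SNRPB and PRPF8, which fell, and SNRNP27 and SF3A1, which rose. The sequences are from RefSeq (GRCh38.p14) and run 5′ to 3′ on the strand of the gene from 250 bases before the annotated start to 30 bases after it. Capitals mark matches, on either strand, to the ETS motif CCGGAAG, the E2F motif TTTCCCGC or TTTGGCGC, the YY1 motif AAGATGGC, the NRF1 motif and the cyclic AMP response element TGACGTCA. The ETS and YY1 motifs can share the letters AAG, but no matches overlap in these 4 windows. SNRPB lies at chr20:2470760-2471039 on the minus strand, PRPF8 at chr17:1684838-1685117 on the minus strand, SNRNP27 at chr2:69893706-69893985 on the plus strand and SF3A1 at chr22:30356865-30357144 on the minus strand.
SNRPB: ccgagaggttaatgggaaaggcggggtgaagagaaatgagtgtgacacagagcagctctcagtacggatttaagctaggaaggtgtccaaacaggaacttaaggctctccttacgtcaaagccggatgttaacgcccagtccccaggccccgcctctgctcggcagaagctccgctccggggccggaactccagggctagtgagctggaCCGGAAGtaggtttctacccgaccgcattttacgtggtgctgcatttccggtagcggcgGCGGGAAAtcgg
PRPF8: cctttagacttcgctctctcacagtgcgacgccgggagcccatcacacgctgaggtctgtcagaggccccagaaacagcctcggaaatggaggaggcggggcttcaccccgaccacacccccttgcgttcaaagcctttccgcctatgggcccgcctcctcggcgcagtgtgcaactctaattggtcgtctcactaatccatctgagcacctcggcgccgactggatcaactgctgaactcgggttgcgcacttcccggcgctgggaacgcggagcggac
SNRNP27: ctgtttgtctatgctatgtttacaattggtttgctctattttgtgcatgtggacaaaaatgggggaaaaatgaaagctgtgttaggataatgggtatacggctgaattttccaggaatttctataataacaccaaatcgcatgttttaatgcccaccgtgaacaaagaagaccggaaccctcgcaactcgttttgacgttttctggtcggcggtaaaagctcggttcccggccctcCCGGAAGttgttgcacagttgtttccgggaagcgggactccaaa
SF3A1: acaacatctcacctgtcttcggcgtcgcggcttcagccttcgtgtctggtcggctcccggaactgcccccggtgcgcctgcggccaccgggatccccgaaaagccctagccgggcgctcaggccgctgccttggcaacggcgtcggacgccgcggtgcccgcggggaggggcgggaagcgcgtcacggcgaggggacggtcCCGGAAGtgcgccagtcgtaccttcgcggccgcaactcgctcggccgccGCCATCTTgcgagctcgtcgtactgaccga
The SNRPB window holds an ETS match whose first base is at -41 and, on the other strand, an E2F match at position 19. SNRNP27 holds an ETS match at -14, SF3A1 an ETS match at -49 and a YY1 match at its start, and the PRPF8 window holds none of these letters. RefSeq windows of 300 bases were matched by symbol for 44 of the 54 members, and a gene with several listed starts counted once if any of its windows held the motif. Among the members with no matched window were SNRPD1, PRPF39, SF3B3, PRPF3, PRPF4B, LSM6, LSM1, SNRNP35 and LSM14A. An ETS match was present in 19 of these 44 members, or 43.2%, against 12.2% of all 27305 genes with a window and 21.4% of the 11321 of them that were tested. It stood in 9 of 20 members that rose and 4 of 15 that fell, and the rest of the 19 were members that did not pass. Shares among all genes called higher or lower were not computed for any motif, so no link with direction is drawn. E2F matches were present in 3 members, LSM3, SF3B1 and SNRPB, all among those that fell, or 6.82% of members against 2.75% of all genes and 4.5% of those tested. YY1 matches were in 13.6% of members, 3.52% of all genes and 6.22% of those tested. An NRF1 match was in 1 member, LSM7, or 2.27%, against 1.52% of all genes and 2.62% of those tested. A cyclic AMP response element was in 1 member, SNRNP40, or 2.27%, against 2.25% and 3.8%. With 1 member each, these shares cannot be told from those of the tested genes.

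The Sm ring, which encloses the small nuclear RNA of most particles, was mostly lower. Of its 8 genes 6 fell, 1 rose and 1 did not pass. The median was -0.46 log2, and the number lower stayed at 6 or 7 under the 17 alternatives. SNRPD3 (ENSG00000100028, chromosome 22, 24555958 to 24582052, GRCh38), one of the ring's D subunits, had 7.14, 6.77 and 6.93 FPKM after Japoflavone B and 12.4, 11.7 and 12.7 FPKM after DMSO. Every treated library lay below every DMSO library, and the fall was 1.64-fold (log2 fold change -0.71 ± 0.07 SE; edgeR adjusted p = 1.81e-09). It shares 12.6% of its exonic bases with GUCD1 on the opposite strand, which had 6768 counts where SNRPD3 had 4230 and a log2 fold change of 0.01. SNRPB, the gene of the B and B′ subunits, had 40.6, 42.9 and 39.6 FPKM after Japoflavone B and 61.8, 69.8 and 74.2 FPKM after DMSO, without overlap, and was 1.56-fold lower (-0.64 ± 0.06 log2; adjusted p = 1.96e-10). Its promoter, shown above, is one of those with an E2F match. SNRPD1 was 1.5-fold lower, SNRPG 1.35-fold lower and SNRPF 1.2-fold lower.

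SNRPN, an imprinted gene on chromosome 15 whose protein closely resembles that of SNRPB, fell beside it. It had 9.43, 10.8 and 9.90 FPKM after Japoflavone B and 13.8, 15.9 and 15.5 FPKM after DMSO, 1.4-fold lower (-0.48 ± 0.08 log2; adjusted p = 3.06e-06). Per length, SNRPN stood at 0.245 ± 0.0111 of SNRPB after Japoflavone B and at 0.220 ± 0.00989 after DMSO (SD, n = 3 each), a small difference although the groups did not overlap. In GENCODE 29, 23.8% of the exonic bases of SNRPN are shared with SNURF, a gene on the same transcript, which was listed with 91 counts over the 6 libraries, and 4.1% are shared with SNHG14 on the same strand, which had 8866 counts where SNRPN had 4802 and fell by 1.00 log2 (adjusted p = 2.92e-12). Counts of these genes cannot be told apart in the shared parts.

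SNRPD2 was the Sm gene with the highest level per length and did not follow the others. SNRPB had more counts, 31681 over the 6 libraries against 24085 for SNRPD2. Its deposited exonic size is 5153 bases, against 1441 for SNRPD2, so FPKM levels and shares of the ring depend on these sizes. It had 157, 157 and 147 FPKM after Japoflavone B and 124, 154 and 162 FPKM after DMSO, so that the groups overlapped and DMSO replicate 1 was the lowest of the 6 libraries. Its log2 fold change of 0.17 ± 0.07 passed (adjusted p = 0.0311), but the call was lost in 10 of 17 alternatives and the value turned to -0.04 with limma on log2(TPM + 1). It was lost without DMSO replicate 1 (adjusted p = 0.271), without Japoflavone B replicate 1 (0.0776) and without Japoflavone B replicate 2 (0.104). As a share of the summed FPKM of the ring, SNRPD2 made up 55% ± 0.695 after Japoflavone B and 43.5% ± 1.98 after DMSO, and SNRPB made up 14.7% ± 0.254 after Japoflavone B and 20.4% ± 0.173 after DMSO (SD, n = 3). SNRPE, with 12.22, 11.98 and 13.56 FPKM after Japoflavone B and 13.8, 15.3 and 17.7 FPKM after DMSO, did not pass (-0.20 log2; adjusted p = 0.0546). It passed as lower in 9 alternatives, among them those without DMSO replicate 1 (adjusted p = 0.00436) or Japoflavone B replicate 3 (0.0415). Pseudogenes named after SNRPG and SNRPE held 31.6% and 39.0% as many counts as the genes after Japoflavone B and 37.9% and 49.6% as many after DMSO. With these counts added, the log2 ratio of mean scaled counts (library totals, no trimmed-mean factors) was -0.61 for SNRPG and -0.41 for SNRPE, against -0.54 and -0.31 for the genes alone.

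**Figure D3:**
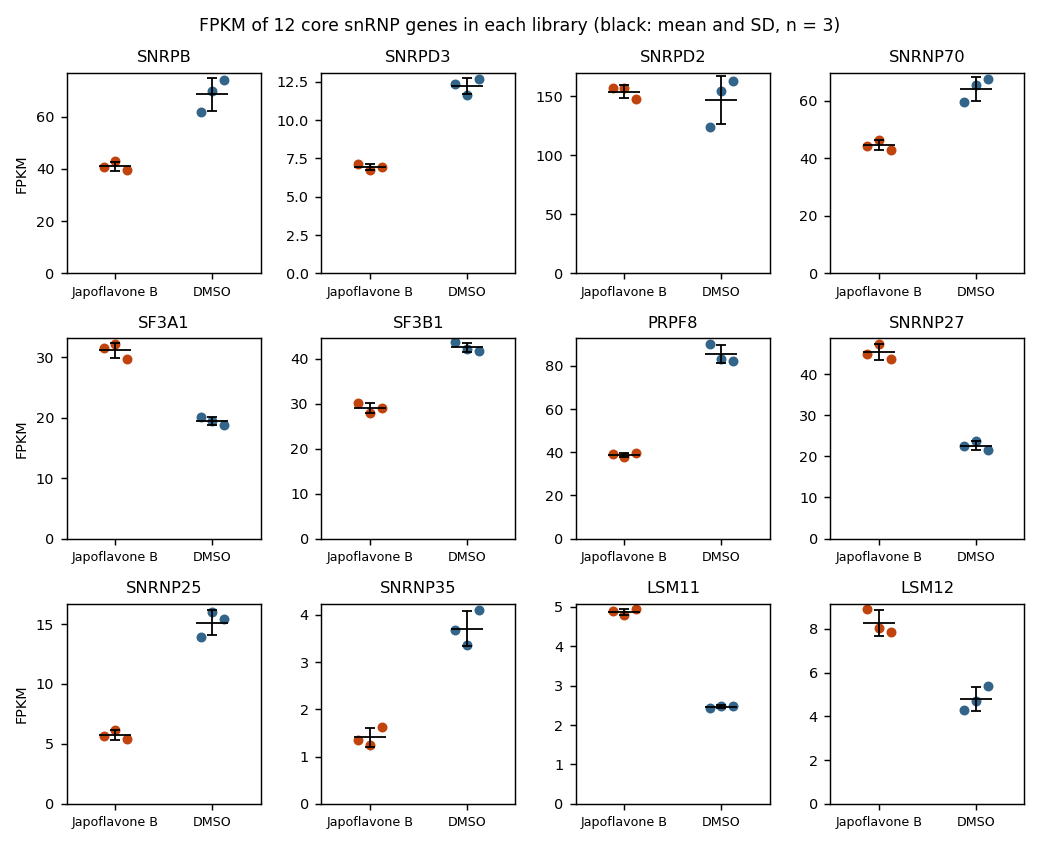
FPKM of 12 core snRNP genes in each library, Japoflavone B on the left and DMSO on the right, with the mean and SD in black (n = 3). SNRPB, SNRPD3, SNRNP70, SF3B1, PRPF8, SNRNP25 and SNRNP35 lie lower and SF3A1, SNRNP27, LSM11 and LSM12 higher after Japoflavone B in every library, while the groups overlap for SNRPD2.

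U1 proteins were split. Of 6 genes 2 rose, 1 fell and 3 did not pass, and the median log2 fold change of 0.09 turned negative under 5 alternatives (-0.02 with library totals; -0.13 as TPM, where 3 were lower and none higher). SNRNP70, the gene of the U1-70K protein that binds the U1 RNA, had 44.1, 46.4 and 42.8 FPKM after Japoflavone B and 59.4, 65.4 and 67.4 FPKM after DMSO. All treated libraries lay lower, by 1.34-fold (-0.42 ± 0.06 log2; adjusted p = 1.13e-07). SNRPA, which encodes protein A of the U1 particle, went the other way, with 56.1 ± 1.36 FPKM after Japoflavone B and 48.8 ± 2.87 after DMSO, 1.23-fold higher, though not past the threshold as TPM (0.153). Within a library the ratio of SNRPA to SNRNP70 was therefore 1.26 ± 0.0728 after Japoflavone B and 0.763 ± 0.0627 after DMSO. SNRPC, the third of the U1-specific proteins, had 44.8 ± 1.36 FPKM after Japoflavone B and 50.1 ± 3.75 FPKM after DMSO and did not pass (-0.06 log2; adjusted p = 0.457), but was called lower in 4 alternatives, at -0.27 to -0.15 log2.

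PRPF40B, a human relative of a yeast factor that bridges U1 to the branch site, was the scarcest member per length, with 1.54, 1.25 and 1.24 FPKM after Japoflavone B and 1.06, 1.13 and 0.844 FPKM after DMSO, and was 1.42-fold higher (0.50 ± 0.13 log2; adjusted p = 0.00117). That call was lost with limma on log2(FPKM + 1), log2(FPKM + 0.1) and log2(TPM + 1) (adjusted p = 0.0729, 0.0718 and 0.181), and 28.0% of the exonic bases of PRPF40B lie opposite FMNL3, which had 914 counts over the 6 libraries where PRPF40B had 1253. PRPF39, the human relative of a yeast U1 protein, stood at 9.25 ± 0.549 FPKM after Japoflavone B and 9.004 ± 0.334 FPKM after DMSO and did not pass (0.14 log2; adjusted p = 0.0807), although it passed as higher without DMSO replicate 1 (0.0315) or Japoflavone B replicate 3 (0.0346). It shares 13.2% of its exonic bases with FKBP3 on the opposite strand, which fell by 1.02 log2.

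In U2 the subunits of the SF3 complexes separated. Of 11 genes 6 rose, 3 fell and 2 did not pass. As TPM 4 were higher and 5 lower, and the median log2 fold change of 0.19 turned to -0.02. SF3A1, the scaffold subunit of SF3a, had 31.5, 32.2 and 29.7 FPKM after Japoflavone B and 20.2, 19.5 and 18.8 FPKM after DMSO, with no overlap, and was 1.71-fold higher (0.78 ± 0.05 log2; adjusted p = 4.82e-13). SF3A2 was 1.42-fold higher and shares 12.7% of its exonic bases with PLEKHJ1 on the opposite strand, which rose by 0.28 log2. SF3A3, the third subunit of SF3a, had 21.1 ± 0.574 FPKM after Japoflavone B and 21.2 ± 0.316 FPKM after DMSO and did not pass (adjusted p = 0.154). SF3B1, the large SF3b subunit that clamps the branch site and is a recurrent target of cancer mutations, had 30.2, 28.0 and 29.1 FPKM after Japoflavone B and 43.7, 42.2 and 41.6 FPKM after DMSO. Its treated libraries were all lower, by 1.36-fold (-0.45 ± 0.05 log2; adjusted p = 5e-09). SF3B3, the SF3b subunit that binds SF3B1, fell 1.28-fold, whereas SF3B2 rose 1.39-fold and SF3B6, the branch-point subunit p14, rose 1.34-fold to 112 ± 6 FPKM, against 90.3 ± 3.34 FPKM after DMSO.

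Ratios between these partners do not depend on how the libraries are scaled. The pairs here and below, other than the paralogs, were chosen after their values were seen and are given as description. The same holds for SNRPA over SNRNP70 above. SF3A1 stood at 1.07 ± 0.0697 of SF3B1 per length after Japoflavone B and at 0.459 ± 0.00545 after DMSO, and SF3B2 at 1.28 ± 0.0411 of SF3B1 after Japoflavone B and 0.677 ± 0.0367 after DMSO (SD, n = 3). SNRPB2, which encodes protein B″ of the U2 particle, was 1.22-fold higher, without passing as TPM (0.321). Its partner on the U2 RNA, SNRPA1 or protein A′, was 1.17-fold lower. The SNRPA1 call was lost in 4 alternatives, including those without DMSO replicate 2, Japoflavone B replicate 2 or Japoflavone B replicate 3 (adjusted p = 0.0616, 0.136 and 0.0639), and its pseudogene held 18.7% as many counts as the gene after Japoflavone B and 27.4% after DMSO. SF3B5, a small SF3b subunit, passed as higher at 0.19 log2 (adjusted p = 0.0255) but lost the call in 10 of 17 alternatives, turned to -0.02 as TPM and did not pass without DMSO replicate 1 or 2 (0.172 and 0.0518) or without Japoflavone B replicate 1 or 2 (0.0735 and 0.0824). SF3B4 did not pass in the main fit (0.07 log2; adjusted p = 0.269), and SF3A3 and SF3B4 were called lower as TPM, at -0.12 and -0.14 log2.

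**Figure D4:**
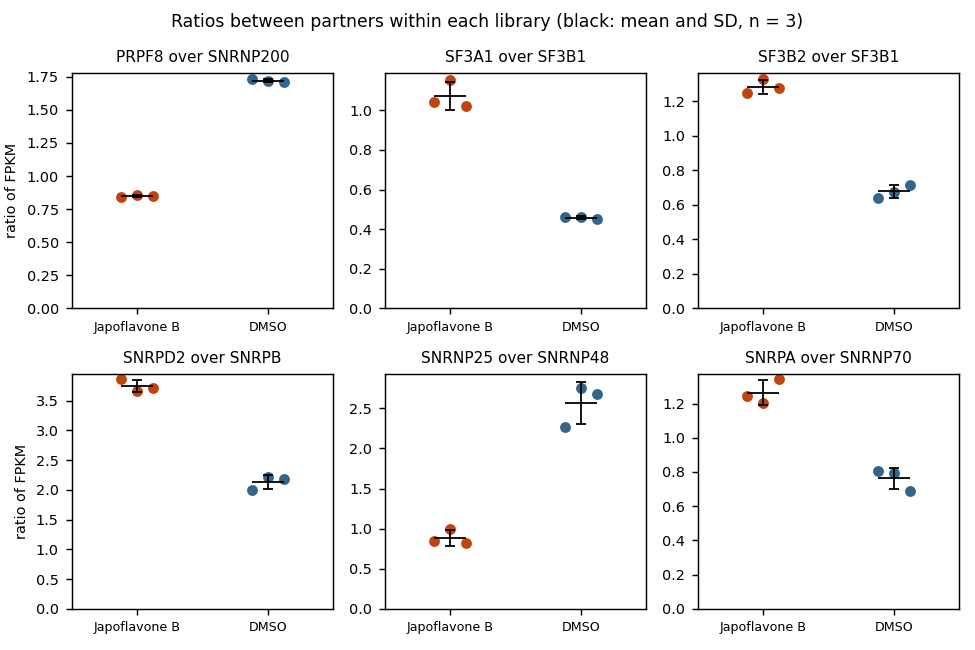
Ratios of the FPKM of partner genes within each library, Japoflavone B on the left and DMSO on the right, with the mean and SD in black (n = 3). PRPF8 over SNRNP200 is 0.850 after Japoflavone B and 1.72 after DMSO, and in each of the 6 panels the groups do not overlap. These pairs were chosen after their values were seen.

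Genes of the U4/U6 and U5 particles moved furthest apart and included the member with the most counts, PRPF8. Of 8 genes 3 rose, 3 fell and 2 did not pass; with library totals 2 were higher and 5 lower, and as TPM 1 and 5. PRPF8 (ENSG00000174231, chromosome 17, 1650629 to 1684867), the large U5 protein that forms the scaffold of the catalytic core, had 39.2, 37.8 and 39.7 FPKM after Japoflavone B and 90.2, 83.4 and 82.5 FPKM after DMSO. The groups lay far apart compared with the spread within each, and PRPF8 was 2.05-fold lower (-1.03 ± 0.05 log2; adjusted p = 1.15e-16). SNRNP200, the U5 helicase that unwinds U4 from U6 and that PRPF8 regulates, had 45.8 ± 1.28 FPKM after Japoflavone B and 49.6 ± 2.09 FPKM after DMSO and did not pass (-0.01 log2; adjusted p = 0.796); it was called lower with library totals and as FPKM or TPM, at -0.23 to -0.11 log2. Per length PRPF8 stood at 0.850 ± 0.00574 of SNRNP200 after Japoflavone B and at 1.72 ± 0.0115 after DMSO. SNRNP40, a WD-repeat protein of U5, was 1.58-fold lower, while PRPF6, which bridges U5 to U4/U6, was 1.15-fold higher, a call lost in 4 alternatives and turned to -0.02 as TPM.

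SNRNP27, a small protein of the tri-snRNP, rose most of all members. It had 44.8, 47.4 and 43.6 FPKM after Japoflavone B and 22.6, 23.6 and 21.6 FPKM after DMSO, 2.15-fold higher (1.10 ± 0.06 log2; adjusted p = 8.69e-15). In GENCODE 29, 10.4% of its exonic bases are shared with MXD1, a gene on the same strand that rose by 2.50 log2 and had 1671 counts over the 6 libraries where SNRNP27 had 7121, and how counts in the shared part were assigned is not given in the sources used here. Of the U4/U6 proteins, PRPF3 was 1.71-fold lower, with 8.66 ± 1.04 FPKM after Japoflavone B and 15.9 ± 1.21 FPKM after DMSO, and its binding partner PRPF4 was 1.19-fold higher, without passing as TPM (0.464). PRPF31, which binds the U4 RNA and is mutated in retinitis pigmentosa, had 27.2, 26.8 and 25.5 FPKM after Japoflavone B and 27.7, 31.6 and 30.7 FPKM after DMSO and did not pass (-0.08 log2; adjusted p = 0.278), but passed as lower in 5 alternatives, including the one without DMSO replicate 1 (0.0461). Summed over the members, core snRNP genes took 0.563% ± 0.00651 of counts after Japoflavone B and 0.658% ± 0.00435 after DMSO, and without PRPF8 they took 0.519% ± 0.00719 after Japoflavone B and 0.561% ± 0.00834 after DMSO (SD, n = 3). These are shares of library totals, without the trimmed-mean factors, which were 0.957 to 0.97 after Japoflavone B and 1.03 to 1.04 after DMSO. Scaling by library totals alone shifted the log2 fold change of all genes by a median of -0.10.

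The remaining PRPF genes act at several steps. PRPF4B, a kinase that phosphorylates tri-snRNP proteins, had 8.82, 8.27 and 8.03 FPKM after Japoflavone B and 15.3, 14.2 and 13.4 FPKM after DMSO, and fell 1.59-fold (-0.67 ± 0.06 log2; adjusted p = 1.35e-10). PRPF18, a factor of the second catalytic step, had 3.02, 3.01 and 3.17 FPKM after Japoflavone B and 2.56, 2.38 and 2.38 FPKM after DMSO, 1.35-fold higher (0.43 ± 0.08 log2; adjusted p = 1.35e-05), and fell short of the threshold as TPM (0.0568). Neither gene's groups overlapped. In GENCODE 29, 42.0% of the exonic bases of PRPF18, or 783 bases, are shared with AL157392.5 on the same strand, which was not analysed here. The deposited exonic size of PRPF18 is 12262 bases, so this percentage does not describe the gene model that was counted. PRPF38A, which joins before activation, had 5.54, 5.70 and 5.79 FPKM after Japoflavone B and 7.42, 7.47 and 6.97 FPKM after DMSO, and was 1.2-fold lower. Its relative PRPF38B had 7.75, 8.43 and 7.36 FPKM after Japoflavone B and 10.2, 9.17 and 8.93 FPKM after DMSO, 1.12-fold lower. The ratio of PRPF38A to PRPF38B was 0.726 ± 0.0562 after Japoflavone B and 0.774 ± 0.0448 after DMSO, within the spread of the libraries. The PRPF38B call was lost without DMSO replicate 1, Japoflavone B replicate 1 or Japoflavone B replicate 3 (adjusted p = 0.157, 0.127 and 0.209). PRPF19, the ubiquitin ligase that names the Prp19 complex, passed at 0.13 log2 (adjusted p = 0.0424) but kept the call in only 3 of 17 alternatives and turned to -0.09 as TPM; without DMSO replicate 1 or 2 or any of the 3 Japoflavone B libraries adjusted p was 0.0647 to 0.127.

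The LSM ring moved little. LSM2 to LSM8 bind the end of the U6 RNA in the nucleus, and LSM1 takes the place of LSM8 in the cytoplasm, where the ring promotes decapping of mRNA. Of these 8 genes 3 rose, 2 fell and 3 did not pass, their median log2 fold change was 0.15 (-0.06 as TPM), and their summed level was 140 ± 4.26 FPKM after Japoflavone B and 140 ± 9.48 FPKM after DMSO. LSM6 had 3.20, 3.77 and 3.58 FPKM after Japoflavone B and 2.23, 2.92 and 2.45 FPKM after DMSO, without overlap, 1.48-fold higher (0.57 ± 0.12 log2; adjusted p = 2e-04). LSM5 had 11.6, 10.3 and 10.6 FPKM after Japoflavone B and 13.8, 13.8 and 14.9 FPKM after DMSO, also without overlap, 1.22-fold lower (-0.28 ± 0.07 log2; adjusted p = 4.99e-04). LSM1 was 1.29-fold higher, with 13.9 ± 1.01 FPKM after Japoflavone B and 11.6 ± 1.33 FPKM after DMSO in groups that overlapped, and did not pass as TPM (0.205). It shares 11.7% of its exonic bases with BAG4 on the opposite strand, which had 5039 counts where LSM1 had 2382 and rose by 0.30 log2. LSM8 stood at 2.68 ± 0.322 FPKM after Japoflavone B and 3.03 ± 0.0532 FPKM after DMSO and did not pass (-0.08 log2; adjusted p = 0.374), though it was called lower with library totals and as TPM, at -0.18 and -0.27 log2. Per length, the ratio of LSM1, the cytoplasmic subunit, to LSM8, the nuclear one, was 5.24 ± 0.53 after Japoflavone B and 3.85 ± 0.504 after DMSO, with no overlap between groups. In counts LSM8 stood above LSM1, with 5566 over the 6 libraries against 2382. The deposited exonic size of LSM8 is 17309 bases, against 1676 for LSM1, so the level of this ratio depends on these sizes.

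LSM4 (0.17 log2) and LSM3 (-0.14 log2) passed narrowly. LSM4 lost its call in 7 of 17 alternatives, among them those without DMSO replicate 1 or Japoflavone B replicate 2 (adjusted p = 0.11 and 0.0831), and turned to -0.05 as TPM. LSM3 lost its call in 9, including 5 that left out DMSO replicate 2 or 3 or one of the Japoflavone B libraries (adjusted p = 0.0696 to 0.12). LSM2 and LSM7, at 0.15 and 0.14 log2, did not pass, and LSM2 passed without DMSO replicate 3 (0.0478).

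Both genes of the U7 particle rose. LSM11, which with LSM10 replaces an Sm pair in the ring on U7 RNA, had 4.91, 4.79 and 4.94 FPKM after Japoflavone B and 2.43, 2.48 and 2.49 FPKM after DMSO. The libraries of each group lay close together, and LSM11 was 2.13-fold higher (1.09 ± 0.09 log2; adjusted p = 6.37e-12). LSM10 had 11.5, 11.4 and 10.5 FPKM after Japoflavone B and 8.70, 8.92 and 11.3 FPKM after DMSO, so that DMSO replicate 3 lay among the treated libraries, and was 1.25-fold higher (0.32 ± 0.11 log2; adjusted p = 0.0137). The LSM10 call was lost without DMSO replicate 2 (adjusted p = 0.0803) and with library totals, FPKM or TPM (0.088 to 0.426). Of 9 tested partners in histone mRNA processing, 7 fell and 2 rose (median -0.28 log2). The zinc finger protein ZNF473, which binds the U7 particle, was 2.95-fold higher, at 7.88 ± 0.567 FPKM after Japoflavone B and 2.85 ± 0.246 FPKM after DMSO, and the scaffold SYMPK was 1.41-fold higher, while the cleavage complex subunit CPSF2 was 1.65-fold lower.

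In the minor spliceosome the particle-specific members separated sharply. SNRNP25, a protein of the U11 particle, had 5.63, 6.18 and 5.42 FPKM after Japoflavone B and 13.9, 16.0 and 15.4 FPKM after DMSO, 2.46-fold lower (-1.30 ± 0.09 log2; adjusted p = 1.25e-12). SNRNP35, the U11 counterpart of U1-70K, had 1.34, 1.25 and 1.63 FPKM after Japoflavone B and 3.67, 3.36 and 4.10 FPKM after DMSO, 2.44-fold lower (-1.29 ± 0.13 log2; adjusted p = 8.39e-10). Neither gene's groups overlapped. SNRNP48, which contacts the 5′ splice site of minor introns, had 6.65, 6.20 and 6.64 FPKM after Japoflavone B and 6.15, 5.80 and 5.75 FPKM after DMSO, 1.18-fold higher (0.24 ± 0.07 log2; adjusted p = 0.00493), a call lost with library totals, FPKM or TPM (0.0703 to 0.753). SNRNP25 thus stood at 0.887 ± 0.0973 of SNRNP48 after Japoflavone B and at 2.57 ± 0.265 after DMSO. SNRNP35 shares 40.1% of its exonic bases with RILPL1 on the opposite strand, which rose by 0.53 log2, and whether the counting used strand is not stated in the sources used here. Of 9 other minor spliceosome genes tested, 6 were higher and 2 lower (median 0.38 log2), against 3 higher and 2 lower as TPM (median 0.13 log2). SCNM1 was 1.53-fold higher, PDCD7, a U11 protein, 1.32-fold higher and ARMC7 1.35-fold lower.

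The 3 LSM-domain genes outside the rings rose. LSM12 had 8.92, 8.04 and 7.85 FPKM after Japoflavone B and 4.30, 4.69 and 5.39 FPKM after DMSO, without overlap, 1.86-fold higher (0.90 ± 0.10 log2; adjusted p = 7.4e-09). The pseudogene LSM12P1 held 53.8% as many counts as LSM12 after Japoflavone B and 93.0% as many after DMSO, and with its counts added the log2 ratio of mean scaled counts was 0.48, against 0.79 for LSM12 alone. LSM14B had 21.2, 21.5 and 19.7 FPKM after Japoflavone B and 14.3, 13.8 and 11.9 FPKM after DMSO, 1.67-fold higher (0.74 ± 0.07 log2; adjusted p = 2.7e-10). Its paralog LSM14A, a component of processing bodies that represses translation, had 65.5, 65.6 and 65.1 FPKM after Japoflavone B and 63.8, 59.1 and 57.2 FPKM after DMSO. LSM14A was 1.17-fold higher, but not past the threshold as TPM (0.85), and its ratio to LSM14B was 3.15 ± 0.135 after Japoflavone B and 4.52 ± 0.266 after DMSO.

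Genes that assemble snRNPs and the other spliceosome proteins were read from the same fit. Of 22 genes of snRNP assembly and transport 12 were higher and 6 lower, against 4 higher and 9 lower as TPM. Their median was 0.21 log2, or -0.0004 as TPM. The 3 with the smallest adjusted p fell: GEMIN4, a subunit of the SMN complex that loads Sm rings, 1.98-fold lower, the nuclear cap-binding subunit NCBP1 1.81-fold lower, and WDR77, the partner of the methyltransferase PRMT5 that modifies Sm proteins, 2.12-fold lower. Among 15 other U2 and branch-site factors 5 rose and 7 fell (median -0.19 log2; 3 and 8 as TPM), and DDX46, the helicase that remodels U2 at the branch site, had 3.63 ± 0.264 FPKM after Japoflavone B and 23.1 ± 1.35 FPKM after DMSO, 5.92-fold lower (edgeR adjusted p = 7.92e-23). Of the same list U2SURP was 1.7-fold and DDX42 1.58-fold lower.

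Other tri-snRNP proteins, 15 in all, gave 7 higher and 3 lower, against 3 higher and 5 lower as TPM or with library totals. Their median was 0.12 log2, or -0.10 as TPM. DDX23, the helicase of the U5 particle, was 1.56-fold lower, AAR2, the chaperone that holds PRPF8 during U5 assembly, was 1.67-fold higher, and SART1 was 1.44-fold higher. In the Prp19 complex and its relatives 10 of 20 rose and 3 fell (median 0.22 log2), against 5 higher and 7 lower as TPM (median 0.0033). Among them were SYF2, 2.33-fold higher, RNF113A, 2.13-fold higher, and PLRG1, 1.66-fold higher. The list of helicases and second-step factors had 4 of 10 higher and 4 lower, and its median of 0.03 log2 turned negative in 7 of 17 alternatives, from -0.01 to -0.18; DHX38 was 1.35-fold, TFIP11 1.52-fold and SLU7 1.36-fold higher. The exon junction complex had 3 of 9 higher and 4 lower (median -0.07 log2; 1 and 6 as TPM), with MAGOHB 2.73-fold and RBM8A 1.5-fold lower and RNPS1 1.41-fold higher. Decapping partners of the LSM ring had 3 of 9 higher and 3 lower. Their median, 0.06 log2, was negative in 4 alternatives (-0.04 with library totals, -0.15 as TPM). DCP1B and DCP1A, activators of the decapping enzyme, were 4.02-fold and 1.82-fold higher, and the helicase DDX6 was 1.26-fold lower.

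Of the 140 tested genes that the deposited table assigns to the KEGG spliceosome pathway and that are not members, 81 fell and 33 rose (94 and 19 as TPM), with a median of -0.39 log2. The share lower was 57.9% there, against 37.0% of the members and 35.4% of all genes tested, a difference that was not tested. Among the genes of that pathway with the smallest adjusted p were the chaperone HSPA2, 11.5-fold lower, and the splicing factor SRSF2, 7.3-fold lower.

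**Figure D5:**
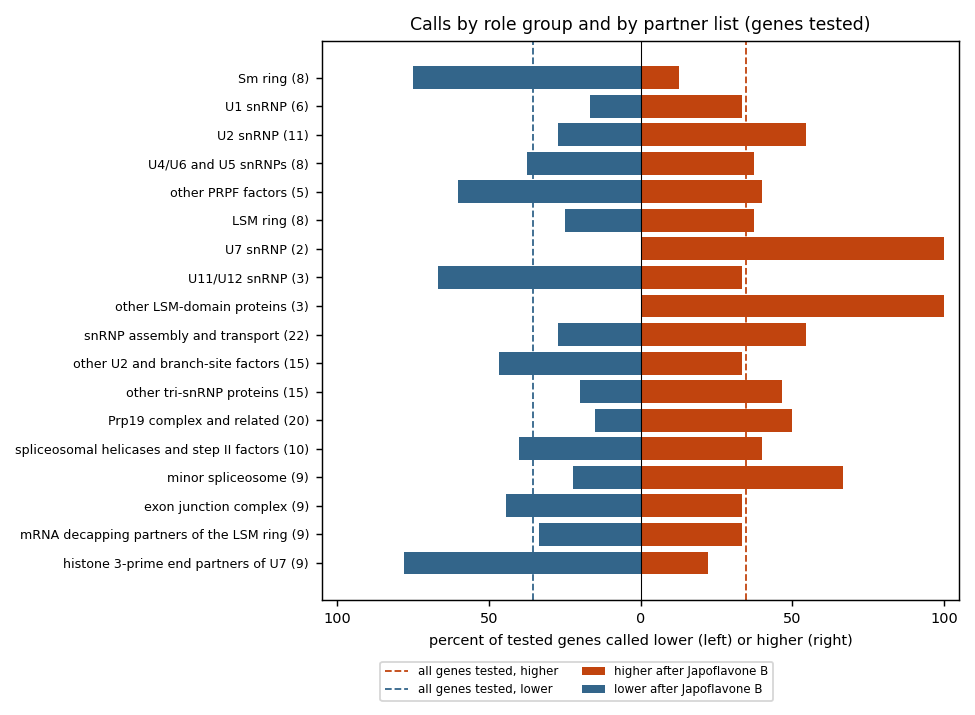
Percent of tested genes called lower (left, blue) or higher (right, orange) after Japoflavone B in each role group of core snRNP genes and in each list of partner genes, with the number of genes tested in brackets. Dashed lines give the 35.4% lower and 34.7% higher among all genes tested; in the Sm ring 75% were lower and 12.5% higher.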

How the data were processed

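The deposited table holds, per the file headers, 1 raw count and 1 FPKM value per gene and library, the authors' whole-number counts and their FPKM, and exonic gene sizes in bases (another deposited value). FPKM recomputed from the counts without rounding, used here, differed from the deposited FPKM by at most 0.005. Per the submitters' processing notes the tools were cutadapt 1.9.1, HISAT2 2.0.1, HTSeq 0.6.1 and DESeq2 on GRCh38; annotation release and strand setting are not given in the sources used here.

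Counts were filtered (filterByExpr, minimum 10, total 15), scaled by trimmed mean of M-values and tested over 16082 genes in R 4.3.3 by the quasi-likelihood test of edgeR 4.0.16, whose only term was treatment, with Benjamini-Hochberg adjustment and a threshold of 0.05. The SE is the log2 fold change over the square root of F. TPM were computed from counts and gene sizes. Alternatives used limma 3.58.1, after a filter at a mean of 0.5, and DESeq2 1.42.0. On data simulated for this comparison over 15741 genes, 69% of 100 genes changed 1.5-fold and 85% of 100 changed 2-fold were recovered, and 11 of 165 calls were unchanged genes. All other genes were left unchanged there, whereas 70% of genes passed in the data, and no difference in scaling between groups was built in. These rates therefore do not carry over to the fit reported. Gene overlaps and their percentages are from GENCODE 29, whose gene models can differ in size from those of the deposited table.

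Members, role groups and lists were chosen with earlier results of these data known, although the symbol patterns themselves use no measured value. Values in every library are given for the highest and lowest fold change in each role group, for changes of at least 2-fold and for paralog pairs; of other lists, the 3 smallest adjusted p at 5 FPKM or more in the higher group are named. SNRPE and PRPF31 were added after its values were seen. Proteins were not compared. Single results for 1 member, which stays in the counts, and for 1 gene of a list are not reported here. Replicate numbers did not pair libraries: deviations of same-numbered libraries correlated at 0.013, -0.004 and -0.045.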

Additional observations from a re-analysis of the deposited data

How the results depend on the processing

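The numbers of genes higher and lower among all genes tested stayed within 1.5 times the main counts under all 17 alternatives, as did the number of core snRNP genes that were lower. The number of core snRNP genes that were higher, 23, was 15 with limma on log2(FPKM + 1) and on log2(FPKM + 0.1) and 9 on log2(TPM + 1). The median of the members, 0.08 log2, turned to -0.0202 with library totals, -0.0202 on log2(FPKM + 0.1), -0.0197 on log2(FPKM + 1) and -0.13 as TPM, and was 0.0248 with genes of at least 2 FPKM. As TPM 7 members changed direction with a call before or after: PRPF6 (-0.0178), PRPF19 (-0.0854), SNRPD2 (-0.0392), LSM4 (-0.0470), SF3B4 (-0.14), SF3B5 (-0.0217) and SF3A3 (-0.12). Both TPM and library totals alone lack the trimmed-mean factors. With library totals, those of the 7 called higher in the main fit stayed positive: PRPF6 (0.0955), PRPF19 (0.0266), SNRPD2 (0.0662), LSM4 (0.0636) and SF3B5 (0.0883). The cause of the changes was not tested. Over the members reported and the alternatives 791 values kept their side of the threshold, 75 lost the call and 27 gained one; PRPF40B was below the filter at 2 FPKM and had no value there. Of the 791, 11 changed sign without passing in either fit, in LSM2, LSM7, PRPF39, SF3A3, SF3B4 and SNRNP200. Replicate numbers did not pair libraries; with the replicate block 22 members were higher and 20 lower. It ended the calls of LSM3 and PRPF19 (adjusted p = 0.0593 and 0.0547) and gave one for SNRPE (0.0379). The lowest member count, 92, and the number of libraries limit what small differences can be seen, and counting error was not modelled apart from the spread between libraries.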
